A study of Homo sapiens with 9 samples.

Results

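The genes described here are 9 mesenchymal regulators and adhesion molecules. They comprise the transcription factors SNAI1, SNAI2, TWIST1, TWIST2, ZEB1, ZEB2 and PRRX1, and the cadherins CDH2 and CDH11. They were taken by name, whatever their values, out of 19775 genes that the arrays measured, with every probe set that the platform annotation assigns to 1 of these symbols alone. That gave 23 of 41097 such probe sets. A gene was tested when its signal exceeded the array median on at least 3 arrays. This left 8 of the 9 genes among 12587 tested genes. SNAI1 was too dim to test. The data come from U87, an established human glioma line, measured on Affymetrix expression arrays that report 1 intensity (the signal, in arbitrary linear units) per probe set. Cells in all groups received 50 nM of an RNA duplex with the lipid reagent Lipofectamine RNAiMAX and were harvested after 72 h. The duplex was miR-376a*A in the first group, miR-376a*G in the second and a control duplex, miR-control, in the third, with 3 arrays per group and no untransfected cells. The labels call the replicates biological but do not say which cultures or days they came from, so the p-values measure only the spread among these arrays. The stated purpose was to find, for each microRNA form, the genes that differ from the control duplex.

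SNAI, TWIST and ZEB proteins are DNA-binding factors that repress epithelial genes such as the E-cadherin gene and favour a motile, mesenchymal state. They bind short E-box motifs through zinc fingers (SNAI and ZEB) or a basic helix-loop-helix (TWIST), and PRRX1 is a paired-type homeodomain factor of the mesenchyme. CDH2 (N-cadherin) and CDH11 (OB-cadherin) are calcium-dependent adhesion proteins of neural and mesenchymal cells. In glioma, which is not an epithelial tumour, these genes are commonly read as part of a mesenchymal, invasive programme.

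miR-376a* is the older name of the 5p arm of the miR-376a hairpin, whose precursor is a known target of adenosine-to-inosine editing. The A and G of the labels name the base at the edited position, inosine being read as guanosine. The human genome holds 2 copies of this hairpin, and their mature 5p sequences are shown because the seed (bases 2 to 8, in capitals) is the part that pairs with a target. Both are from RefSeq (GRCh38.p14), on the plus strand of chromosome 14 at chr14:101040788-101040809 and chr14:101040080-101040100. The labels do not give the sequence of any duplex that was transfected, and the edited form is not shown.
hsa-miR-376a-5p: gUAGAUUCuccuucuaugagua
hsa-miR-376a-2-5p: gGUAGAUUuuccuucuauggu
The 2 reference seeds read UAGAUUC and GUAGAUU and so differ from each other by a shift of the same run of bases.

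Before any gene is described, 2 arrays have to be set apart. The first is labelled miR-376a*A replicate 1. Its Pearson correlation over the tested genes was 0.925 and 0.934 with the rest of its own group, but 0.987 and 0.990 with control replicates 2 and 3. The other is labelled miR-control replicate 1 and gave 0.935 and 0.934 within its group, but 0.990 and 0.982 against replicates 2 and 3 of miR-376a*A. The 3 miR-376a*G arrays correlated at 0.986 to 0.988. The labels were kept as given. The 8 tested genes were counted both for all 9 arrays and for the 7 that remain without these 2. The latter is the fit to 7 arrays, with 2 arrays each for miR-376a*A and control. The 2 arrays were set apart by their expression in these same data, so SEs and p-values without them can be too small. That holds above all for genes split along these arrays, such as CDH2, PRRX1 and CDH11. Other results are for all 9 arrays unless the 7 are named. Of 5 genes listed as markers of the glioma line, VIM (vimentin) lay at 2107 to 2975, CD44 at 1475 to 2193 and TNC (tenascin C) at 1462 to 2314 over the 9 arrays. NES (nestin) lay at 32.4 to 61.6, close to the array medians of 18.01 to 24.6. CHI3L1 was at 112 to 121 on the miR-376a*G arrays and at 816 to 1366 on the other arrays. Of 4 astrocyte markers, GFAP lay between 1.48 and 5.66 throughout, and AQP4 and SLC1A2 were also too dim to test. ALDH1L1 lay at 24.0 to 43.6, above the array median on all 9 arrays. None of the 4 epithelial markers passed the filter, and their summed signal was 16.02 to 32.5 in miR-376a*A, 30.2 to 46.7 in miR-376a*G and 15.99 to 19.1 in control. The fibroblast and smooth muscle list summed to 368 to 618, 230 to 271 and 393 to 645 in the same order, with 4 of its 5 genes tested. The part of these markers in the results was not tested. These are whole-culture measurements, in which fewer cells of a kind and less RNA per cell cannot be told apart.

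After miR-376a*G, 4 of the 8 tested genes fell against control, namely SNAI2, ZEB2, TWIST1 and ZEB1, and none rose. Of all tested genes 33.4% were called in this comparison, 18% as higher and 15.4% as lower. A gene was called when its limma p, adjusted by Benjamini-Hochberg over all 12587 genes, was under 0.05. The 3 values of each group lay apart for the same 4 genes, against 53.4% of all genes. In the fit to the 7 arrays, 4 genes were lower and 2 (CDH2 and PRRX1) were higher, where 56.1% of all genes were called, 31.2% as higher and 25% as lower. Groups then did not overlap for 6 of the 8 genes, against 73.5% of all genes.

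After miR-376a*A, 0 of the 8 genes were called as labelled, as were 0% of all genes by limma, of which 463 had an unadjusted p under 0.05. None of the 8 had groups that lay apart, against 6.15% of all genes. In the fit to the 7 arrays 6 of the 8 were called, all higher (SNAI2, ZEB1, ZEB2, PRRX1, CDH2 and CDH11), where 41.9% of all genes were called, 19% as higher and 22.9% as lower. Groups lay apart for 7 of the 8, against 69.5% of all genes. Between the 2 microRNA forms, SNAI2, ZEB2, ZEB1 and TWIST1 were higher with miR-376a*A as labelled, and the same 4 had groups that lay apart. Of all genes 38.2% were called here, 16.4% as higher and 21.8% as lower, and 53.5% had groups that lay apart. With 7 arrays 7 genes were higher, against 59.6% of all genes called, 25.7% as higher and 34% as lower. Groups lay apart for those 7, against 72% of all genes. Both comparisons with control use the same control arrays, so they are not independent of each other.

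**Figure D1:**
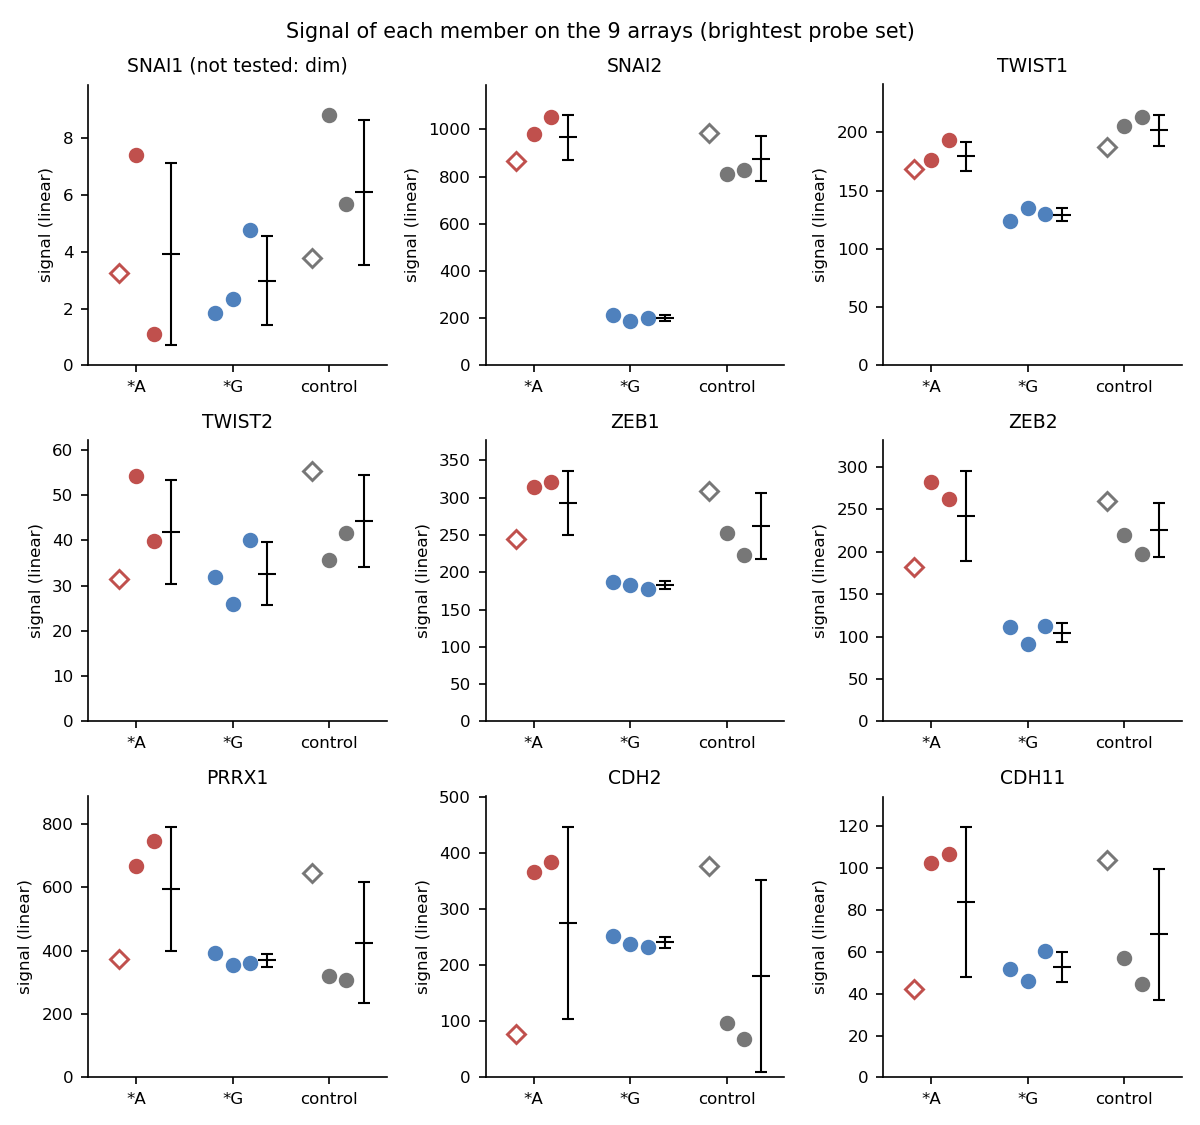
Signal (linear, arbitrary units) of each gene's brightest probe set on the 9 arrays, by labelled group. Circles are arrays, open diamonds are the 2 arrays that stand apart (the first of miR-376a*A and the first of control), and bars are the mean ± SD of all 3 arrays. SNAI2 lies at 186 to 212 in miR-376a*G and at 812 to 1055 elsewhere, while CDH2, PRRX1 and CDH11 split within the miR-376a*A and control groups along the 2 diamonds.

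SNAI2 (Slug), a zinc-finger repressor of E-cadherin, showed the largest difference of the 8 genes between miR-376a*G and control. Its only probe set, 213139_at, read 865, 983 and 1055 on the miR-376a*A arrays, 212, 186 and 199 on the miR-376a*G arrays and 986, 812 and 829 on the control arrays. All 3 miR-376a*G values lay far below the 6 others. The group means were 967 ± 95.5, 199 ± 12.8 and 876 ± 95.6 (SD, n = 3). Against control, SNAI2 fell by 2.13 on the log2 scale after miR-376a*G (SE 0.12, 4.37-fold lower, limma adjusted p = 1.04e-05). It was 4.83-fold higher with miR-376a*A than with miR-376a*G (adjusted p = 6.76e-06). Fold changes throughout are on the log2(signal + 1) scale, which understates those of dim genes. The miR-376a*A and control groups overlapped, with a difference of 0.14 (95% interval -0.12 to 0.41, adjusted p = 0.886).

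On the other 7 arrays the order became miR-376a*G, control, miR-376a*A with no overlap. SNAI2 was then 0.31 ± 0.09 (SE) higher with miR-376a*A than in control (1.24-fold, limma adjusted p = 0.0184), and 2.04 ± 0.08 lower with miR-376a*G (4.11-fold, adjusted p = 3.09e-08). The small rise with miR-376a*A rests on 2 arrays per group. With 1 of the 7 arrays also left out in turn, it ranged from 0.26 to 0.36. Some of those fits leave 1 array in a group, so no p-value is given for them. SNAI1 (Snail), the closest relative of SNAI2 on the list, gave 3.24, 7.40 and 1.09 with miR-376a*A, 1.85, 2.34 and 4.77 with miR-376a*G and 3.77, 8.83 and 5.67 in control. All 9 values were below the median of their array, so no fold change is given for SNAI1.

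ZEB2 (SIP1), a zinc-finger and homeodomain repressor, was the gene with the second largest fall after miR-376a*G. Its brightest probe set, 203603_s_at, read 182, 283 and 262 with miR-376a*A, 111, 91.3 and 112 with miR-376a*G and 260, 220 and 197 in control. The miR-376a*G arrays again lay below all others, and the lowest value outside that group was the array labelled miR-376a*A replicate 1. ZEB2 fell by 1.10 ± 0.19 (SE) against control (2.14-fold lower, limma adjusted p = 0.00244) and was 2.27-fold higher with miR-376a*A than with miR-376a*G (adjusted p = 0.0015). The difference between miR-376a*A and control was 0.09 (interval -0.35 to 0.52, adjusted p = 0.926). With those 2 arrays set aside ZEB2 was 1.31-fold higher with miR-376a*A than in control (0.39 ± 0.13, adjusted p = 0.0324). That difference rests on 2 arrays per group, and it ranged from 0.31 to 0.47 with 1 of the 7 arrays also left out in turn.

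ZEB1 (deltaEF1), the paralogue of ZEB2, changed less. Probe set 212764_at read 244, 315 and 321 with miR-376a*A, 188, 183 and 177 with miR-376a*G and 309, 253 and 223 in control. The miR-376a*G values were the 3 lowest, within a range narrower than the gap to the next array. ZEB1 fell by 0.51 ± 0.16 (SE) against control (1.42-fold lower, limma adjusted p = 0.0346) and was 1.59-fold higher with miR-376a*A than with miR-376a*G (adjusted p = 0.00914). The fall against control was not called when miR-376a*G replicate 1, 2 or 3 (0.0828, 0.0887 and 0.104) or control replicate 1 or 2 (0.0828 and 0.0762) was left out. Without both arrays that stand apart, the miR-376a*G difference was -0.38 ± 0.09 (adjusted p = 0.0044), and ZEB1 was 1.34-fold higher with miR-376a*A than in control (0.42 ± 0.10, adjusted p = 0.00588). Both differences rest on 2 control arrays. With 1 of the 7 arrays also left out in turn, the miR-376a*A difference ranged from 0.33 to 0.51. The miR-376a*G difference then ranged from -0.47 to -0.29.

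TWIST1, a basic helix-loop-helix factor of mesoderm and neural crest, was the fourth gene that fell after miR-376a*G. Probe set 213943_at read 168, 176 and 193 with miR-376a*A, 124, 135 and 130 with miR-376a*G and 187, 205 and 213 in control. The miR-376a*G group was lowest without overlap, and the other groups overlapped. TWIST1 fell by 0.64 ± 0.11 (SE) against control (1.56-fold lower, limma adjusted p = 0.00276) and was 1.38-fold higher with miR-376a*A than with miR-376a*G (adjusted p = 0.0112). It was the 1 gene of the 8 whose remaining miR-376a*A arrays all lay below the remaining control arrays once the 2 were set aside, by -0.18 ± 0.11 (adjusted p = 0.202). TWIST2 (Dermo-1), its paralogue, was dimmer. Probe set 229404_at gave 31.5, 54.1 and 39.9 with miR-376a*A, 32.0, 26.0 and 40.0 with miR-376a*G and 55.4, 35.6 and 41.7 in control. The 3 groups overlapped, and the difference between miR-376a*G and control was -0.42 (interval -1.02 to 0.17, adjusted p = 0.243).

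PRRX1, a homeodomain factor of limb and craniofacial mesenchyme, differed within the labelled groups more than between them. Probe set 226695_at read 373, 667 and 745 with miR-376a*A, 393, 355 and 360 with miR-376a*G and 645, 320 and 308 in control. The array labelled miR-376a*A replicate 1 lay closer to control replicates 2 and 3 than to its own group, and within the miR-376a*G range. The array labelled miR-control replicate 1 lay near miR-376a*A replicates 2 and 3. As labelled, PRRX1 differed by 0.51 (interval -0.22 to 1.24) between miR-376a*A and control and by -0.11 (interval -0.84 to 0.61) between miR-376a*G and control. Neither was called by limma (adjusted p = 0.886 and 0.809). Once those 2 arrays were removed PRRX1 was 2.24-fold higher with miR-376a*A than in control (1.16 ± 0.09 SE, adjusted p = 5.67e-06) and 1.17-fold higher with miR-376a*G (0.23 ± 0.09, adjusted p = 0.0404). The latter call was lost when miR-376a*G replicate 1 or 3 (0.14 and 0.0646) was also left out. With 1 of the 7 arrays left out in turn, the miR-376a*G difference ranged from 0.18 to 0.26. That difference turned to -0.08 when arrays were centred on their medians.

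CDH2 (N-cadherin) showed the widest split. Probe set 203440_at read 78.2, 367 and 384 with miR-376a*A, 252, 238 and 234 with miR-376a*G and 378, 96.5 and 68.9 in control. The miR-376a*G arrays formed a narrow middle band, and each of the other groups held values both above and below it. As labelled, the intervals were too wide to place CDH2. Against control the log2 difference was 0.71 (-0.91 to 2.32) for miR-376a*A and 0.82 (-0.80 to 2.43) for miR-376a*G (limma adjusted p = 0.886 and 0.406). Among the 7 arrays the groups stood in the order control, miR-376a*G, miR-376a*A with no overlap. CDH2 was then 4.55-fold higher with miR-376a*A than in control (2.19 ± 0.14 SE, adjusted p = 1.38e-06) and 2.93-fold higher with miR-376a*G (1.55 ± 0.13, adjusted p = 3.19e-06). The microRNA forms differed by 0.64 ± 0.13, with miR-376a*A higher (adjusted p = 0.00147). The neuron markers did not share 1 pattern. SNAP25 was split like CDH2, at 254, 1656 and 1825 with miR-376a*A, 197, 192 and 179 with miR-376a*G and 1498, 240 and 214 in control. MAP2 was split the opposite way, at 486, 212 and 185, then 83.1, 79.4 and 72.9, then 210, 473 and 517 in the same order. SYT1 lay at 144 to 150 with miR-376a*A, 54.6 to 69.5 with miR-376a*G and 116 to 162 in control, with no such split, and RBFOX3 was too dim to test. The list summed to 896 to 2169, 330 to 358 and 855 to 1889, and its part in the result was not tested.

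CDH11 (OB-cadherin, first described in osteoblasts) was split in the same way on the miR-376a*A and control arrays. Probe set 207173_x_at read 42.5, 103 and 107 with miR-376a*A, 52.1, 46.0 and 60.3 with miR-376a*G and 104, 57.0 and 44.5 in control. All miR-376a*G values lay above the lowest value of each other group and well below the values of 103 to 107. As labelled, no difference was called for CDH11 (limma adjusted p = 0.9 against control for miR-376a*A and 0.61 for miR-376a*G). With 7 arrays CDH11 was 2.05-fold higher with miR-376a*A than in control (1.04 ± 0.18 SE, adjusted p = 0.000971) and 1.98-fold higher than with miR-376a*G (adjusted p = 0.000379). Between miR-376a*G and control it then differed by 0.06 (interval -0.31 to 0.42, adjusted p = 0.782).

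**Figure D2:**
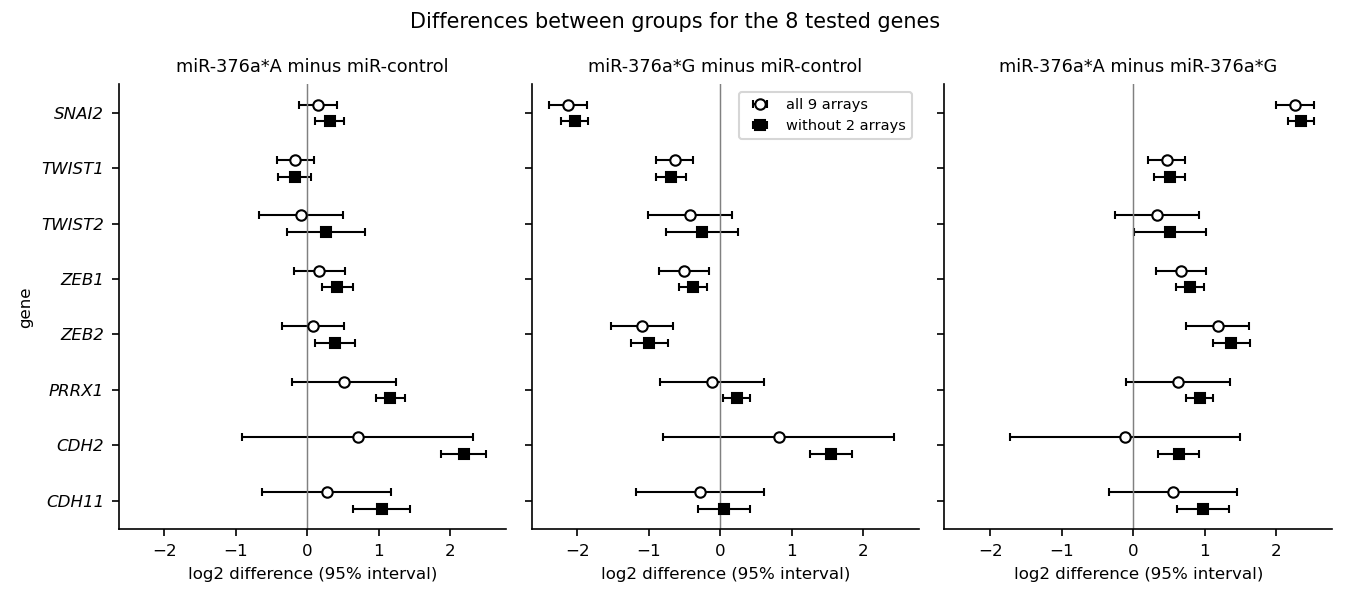
Log2 difference of the 8 tested genes in each comparison, with 95% intervals from limma, for all 9 arrays (open circles) and without the 2 arrays that stand apart (filled squares). SNAI2, ZEB2 and TWIST1 sit at -2.13, -1.10 and -0.64 against control after miR-376a*G and move little between the fits, while CDH2 moves from 0.71 to 2.19 for miR-376a*A against control.

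The deposited signals had been scaled array by array, so a difference is read against the other genes on the array. The median of all tested genes was 0.12 higher with miR-376a*G than in control, and it moved to -0.12 when arrays were centred on their medians, to 0.51 when scaled to the 18 hybridisation controls and to 0.41 when scaled to the 24 poly-A controls. The mean log2 signal of the hybridisation controls was 7.12 to 7.29 on the miR-376a*G arrays and 7.51 to 7.92 on the others. Relative to the median gene, SNAI2 was lower by -2.24 to -2.19 after miR-376a*G over the 5 scalings tried, ZEB2 by -1.21 to -1.19, TWIST1 by -0.75 to -0.71 and ZEB1 by -0.62 to -0.56. SNAI2 and ZEB2 were called as lower against control under all 5 scalings. TWIST1 was not called when scaled to the hybridisation controls (-0.24, limma adjusted p = 0.139) or the poly-A controls (-0.34, adjusted p = 0.0735). ZEB1 was also not called under either (-0.11 with limma adjusted p = 0.632 and -0.20 with adjusted p = 0.293) or after quantile normalization (adjusted p = 0.0598), and without the 2 arrays it turned to 0.03 when scaled to the hybridisation controls. Between the microRNA forms, hybridisation scaling moved the median of all genes from -0.14 to -0.80, and 70.3% of all genes were called (5.45% higher and 64.9% lower with miR-376a*A). SNAI2 was then the 1 call among the 8 genes. TWIST1 turned to -0.20 there, but relative to the median gene it lay at 0.58 to 0.61 over the 5 scalings. For miR-376a*A against control in the fit to 7 arrays, CDH2, PRRX1 and CDH11 stood at 2.18 to 2.20, 1.16 and 1.03 to 1.08 above the median gene over the 5 scalings. The median over the 8 genes was -0.46 after miR-376a*G and 0.15 after miR-376a*A against control as labelled, beside 0.12 and -0.02 for all tested genes.

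Probe sets of 1 gene did not always read alike, and 18 of the 23 could be tested, among 24316 tested probe sets. In the fit of single probe sets as labelled, 32.3% of these were called between miR-376a*G and control, 36.1% between the microRNA forms and 0% between miR-376a*A and control. In the fit to 7 arrays the shares were 54.2%, 58.3% and 40.2%. For ZEB1, 210875_s_at read 66.3, 55.8 and 57.7 with miR-376a*G and 134, 105 and 88.0 in control, and fell by 0.84 (limma adjusted p = 0.00542). Another ZEB1 probe set, 212758_s_at, differed by -0.09 (adjusted p = 0.76), and its groups overlapped. The dimmest, 239952_at, read 4.30, 16.5 and 17.5 with miR-376a*G, all below the array medians, against 21.8 to 28.2 in control, and no fold change is given.

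For ZEB2, 228333_at read 88.6, 98.2 and 88.9 with miR-376a*G and 275, 242 and 222 in control, and fell by 1.41 (adjusted p = 0.000444, limma on single probe sets). The other tested ZEB2 probe sets did not share this fall (0.46 and 0.26 against control, adjusted p = 0.38 and 0.456). 235593_at gave 112, 43.8 and 58.4 with miR-376a*A, 87.2, 129 and 75.4 with miR-376a*G and 45.6, 80.3 and 87.7 in control, and its groups overlapped. 233031_at gave 34.9, 25.3 and 16.8 with miR-376a*A, 40.4, 46.7 and 40.0 with miR-376a*G and 31.4, 36.4 and 37.9 in control. It was lower with miR-376a*A than with miR-376a*G by -0.76 (adjusted p = 0.0413), where 203603_s_at was higher by 1.18. When a gene was represented by the mean of all its probe sets, ZEB2 was not called against control after miR-376a*G (-0.33, adjusted p = 0.0769) or between the forms (0.22, adjusted p = 0.207). The probe annotation does not say which transcripts or exons these probe sets read.

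The second CDH2 probe set, 203441_s_at, read 71.1, 213 and 236 with miR-376a*A, 178, 173 and 198 with miR-376a*G and 202, 56.9 and 58.3 in control. It showed the same split as the first. In the fit to 7 arrays it was 3.84-fold higher with miR-376a*A than in control (limma adjusted p = 9.26e-07). Of PRRX1, 205991_s_at gave 256, 423 and 503, then 307, 299 and 345, then 450, 203 and 220 in the order miR-376a*A, miR-376a*G and control. On the other 7 arrays it was 2.18-fold higher with miR-376a*A than in control and 1.5-fold higher with miR-376a*G (adjusted p = 3.14e-05 and 0.000832). The dim 238852_at of PRRX1 gave 17.9, 29.0 and 29.8, then 33.0, 24.9 and 32.9, then 38.3, 15.2 and 17.2. Control replicates 2 and 3 lay below their array medians, so no fold change against them is given. The second CDH11 probe set, 207172_s_at, was 1.69-fold higher with miR-376a*A than in control without the 2 arrays (adjusted p = 0.0167). The remaining probe sets, 1554163_at of TWIST2, 233033_at of ZEB2, 239286_at and 236179_at of CDH11 and the single SNAI1 probe set, were below the median on every array.

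**Figure D3:**
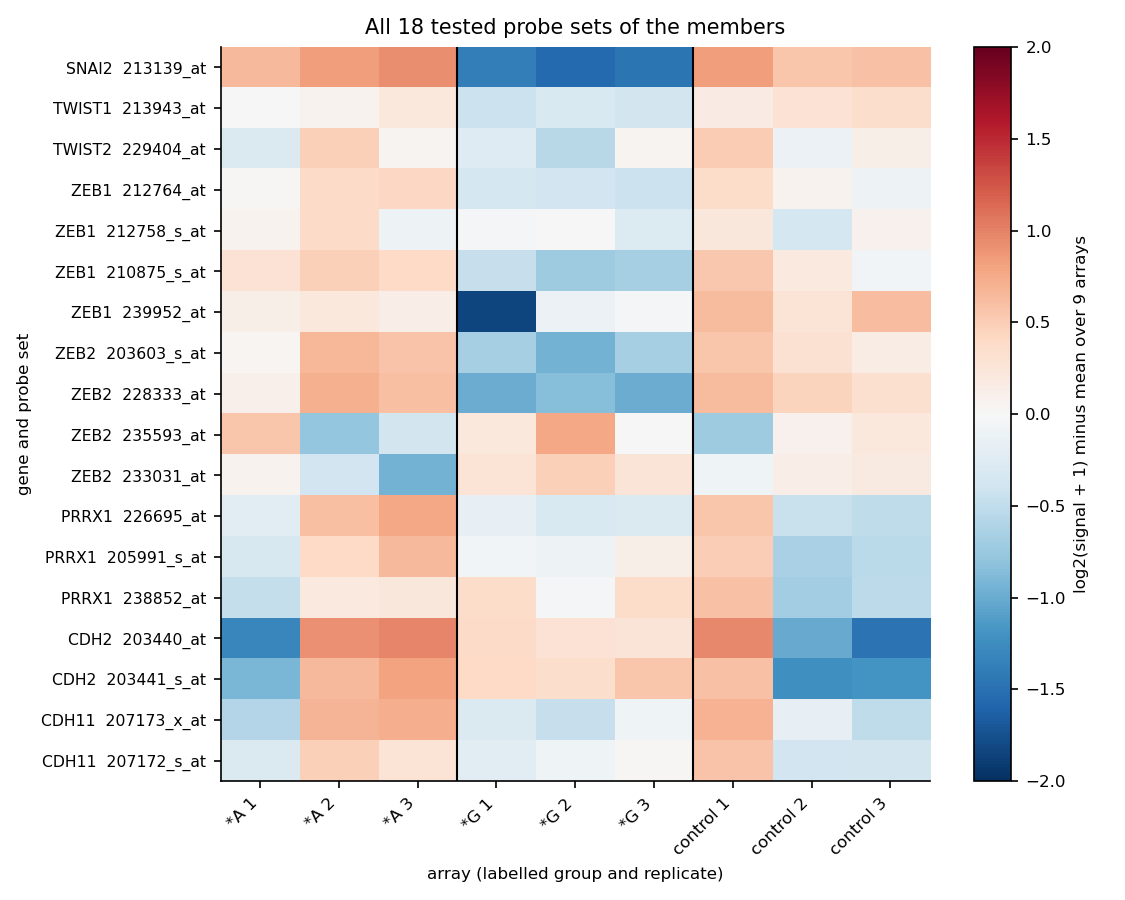
Log2(signal + 1) minus the mean over the 9 arrays for the 18 tested probe sets (rows) on each array (columns, by labelled group and replicate; lines divide the groups). The SNAI2 probe set, 3 of the 4 ZEB1 probe sets and 2 of the 4 ZEB2 probe sets are lowest on the miR-376a*G arrays. The exceptions are 212758_s_at of ZEB1 and 235593_at and 233031_at of ZEB2, and the PRRX1, CDH2 and CDH11 rows show miR-376a*A replicate 1 like controls 2 and 3, and control 1 like miR-376a*A replicates 2 and 3.

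A moderated F test over the 3 groups called SNAI2, ZEB2, TWIST1 and ZEB1 (limma adjusted p = 9.48e-06, 0.00231, 0.00567 and 0.0205), where 34% of all genes were called. CDH2, CDH11, TWIST2 and PRRX1 were not called (0.591, 0.524, 0.4 and 0.281). For the called genes, the tested genes of most similar profile over the 9 arrays were looked up among 12586 genes. SNAI2 was closest to SATB1, a chromatin organiser (Pearson r = 0.999), AP3D1 (0.998) and HEG1 (0.998). ZEB2 was closest to SOX4, a high-mobility-group transcription factor (0.996), CAPZB (0.995) and LOC154761 (0.995). ZEB1 was closest to SEMA4B (0.995), NTNG1 (0.993) and PRRG1 (0.993), and TWIST1 to HIPK1, a nuclear kinase (0.974), S100A3 (0.972) and ASMTL (0.971). These are descriptions over 9 arrays in 3 groups, and the points share their arrays and the difference between groups.

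The related gene lists below are read against the share of all 12587 genes called in the same fit. After miR-376a*G as labelled, that share was 18% higher and 15.4% lower with the signals as deposited. It was 8.48% and 20.6% with arrays centred on medians, 44.1% and 7.57% with hybridisation scaling and 38.3% and 9.18% with poly-A scaling. For miR-376a*A against control in the fit to 7 arrays, it was 19% higher and 22.9% lower as deposited and 7.83% and 35.3% with hybridisation scaling.

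Transcription factors that act beside SNAI, TWIST and ZEB in mesenchymal states moved in both directions after miR-376a*G. Of 24 further mesenchymal factors, 14 were tested, and 2 were higher and 4 lower against control as labelled (18% and 15.4% of all genes; median -0.16, beside 0.12). MSX1, a homeobox factor, read 30.0, 46.5 and 29.6 with miR-376a*A, 116, 119 and 118 with miR-376a*G and 48.3, 31.5 and 31.5 in control, and rose by 1.67 (limma adjusted p = 0.000698). TEAD4, the DNA-binding partner of YAP, rose by 1.47 (adjusted p = 0.0014), from 59.7 to 78.7 in control to 181 to 188. SOX4 fell by 1.49 (adjusted p = 0.00422) and ETS1, an ETS-family activator, by 0.90 (adjusted p = 0.000293). SOX4 lay at 19.3 to 25.0 on the miR-376a*G arrays, close to their medians of 21.7 to 24.6, so its fall rests partly on dim values. With hybridisation scaling the count was 4 higher and 2 lower (44.1% and 7.57% of all genes). FOXC2, a forkhead factor outside the rule for naming genes and chosen after its values were seen, shared the split of CDH2 and PRRX1. It read 328, 1128 and 1092 with miR-376a*A, 164, 152 and 151 with miR-376a*G and 1105, 330 and 333 in control. With 7 arrays 8 of the 14 were higher and 3 lower with miR-376a*A than in control (19% and 22.9% of all genes; median 0.50, beside 0.00). These were 4 and 3 with hybridisation scaling (7.83% and 35.3% of all genes).

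Regulators of the mesenchymal glioma state, activators and a repressor together, gave 2 higher and 5 lower of 9 tested after miR-376a*G as labelled (18% and 15.4% of all genes; median -0.38). These were 3 and 3 with hybridisation or poly-A scaling (44.1% and 7.57%, or 38.3% and 9.18%, of all genes). BHLHE40, a helix-loop-helix repressor, read 379, 375 and 381 with miR-376a*G and 1058 to 1279 on the other arrays, and fell by 1.54 (limma adjusted p = 1.04e-05). FOSL2, an AP-1 subunit, fell by 1.16 (adjusted p = 0.000143) and STAT3, a cytokine-activated factor, by 1.10 (adjusted p = 0.00168). NFKBIZ, a nuclear regulator of NF-kappaB, rose by 1.27 (adjusted p = 0.00047). The other higher gene was ZBTB18, known as a repressor of the mesenchymal glioma programme and named here after its values were seen, at 132 to 152 with miR-376a*G and 65.6 to 109 in control (0.80, adjusted p = 0.016). On 7 arrays the list gave 1 higher and 3 lower between miR-376a*A and control (19% and 22.9% of all genes).

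Of 21 structural and surface genes that usually rise with the mesenchymal state, 17 were tested, with 1 higher and 6 lower after miR-376a*G as labelled (18% and 15.4% of all genes; median -0.20). The 1 higher gene was THY1, named here after its values were seen, at 30.4, 27.1 and 38.3 with miR-376a*G. Its control values of 3.18, 14.9 and 17.4 all lay below the array medians. Outside miR-376a*G it exceeded the median only on miR-376a*A replicate 2, so no fold change is given. PDGFRB, among the 6 lower, lay below the array medians on miR-376a*G replicates 2 and 3. FN1 (fibronectin) read 999.7, 1173 and 1150.2 with miR-376a*G against 2397 to 4065 elsewhere, and fell by 1.32 (limma adjusted p = 0.000373). LOX, a collagen cross-linking enzyme, fell by 0.96 (adjusted p = 0.000687), FAP, a surface protease of activated fibroblasts, by 1.23 (adjusted p = 0.0127) and MMP2, a gelatinase, by 0.50 (adjusted p = 0.00336). The split was 0 and 9 with arrays centred on medians (8.48% and 20.6% of all genes) and 3 and 5 with hybridisation or poly-A scaling (44.1% and 7.57%, or 38.3% and 9.18%). With 7 arrays 14 of the 17 were higher and 2 lower with miR-376a*A than in control (19% and 22.9% of all genes; median 0.52, beside 0.00). These were 9 and 2 with hybridisation scaling (7.83% and 35.3% of all genes). As labelled, 0 were called between miR-376a*A and control, and 9 were higher and 0 lower with miR-376a*A than with miR-376a*G (16.4% and 21.8% of all genes). That split was 4 and 4 with hybridisation scaling (5.45% and 64.9% of all genes).

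Genes that SNAI and ZEB proteins repress in epithelia were mostly too dim to test in these cells. Of 26 with a probe set, 8 were tested, and 0 were called between either microRNA form and control as labelled (median 0.44 for miR-376a*G), where 33.4% of all genes were called for miR-376a*G and 0% for miR-376a*A. With hybridisation or poly-A scaling 4 were higher after miR-376a*G (44.1% or 38.3% of all genes). CDH1, the E-cadherin gene, lay between 0.37 and 17.4 on the 9 arrays and was not tested. OCLN (occludin), a tight junction protein, read 32.5, 26.8 and 26.9 with miR-376a*G and 13.6 to 20.8 elsewhere. It was lower with miR-376a*A than with miR-376a*G (log2 difference -0.69, limma adjusted p = 0.0313). OCLN lay below the array medians on miR-376a*A replicates 2 and 3 and control replicate 1, so its differences rest partly on dim values. Its difference between miR-376a*G and control was 0.49 (adjusted p = 0.109), beside 0.54 for OVOL1 (0.12), 0.39 for KRT8 (0.182) and -0.74 for CDS1 (0.205).

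**Figure D4:**
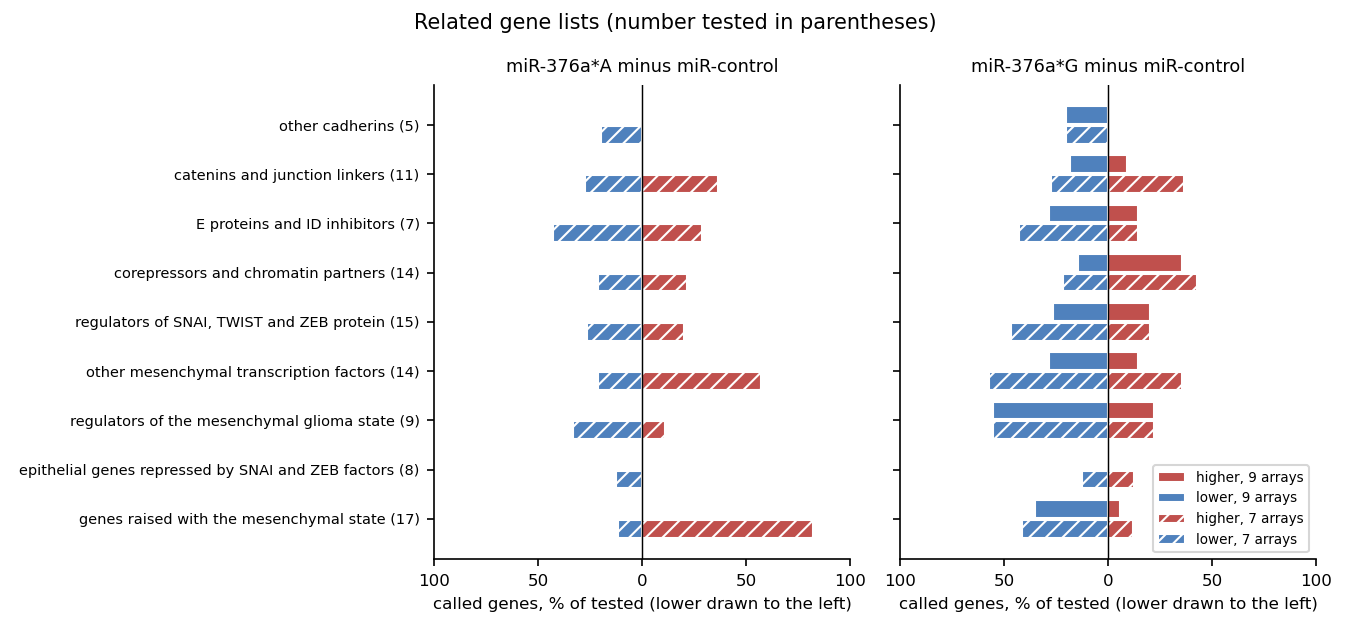
Share of the tested genes of each related list called as higher (right, red) or lower (left, blue) by limma against control, for all 9 arrays (solid) and without the 2 arrays that stand apart (hatched, 7 arrays). In the left panel, for miR-376a*A, no list has a call with all 9 arrays (0% of all genes). Of 17 genes raised with the mesenchymal state, 14 are higher and 2 lower without the 2 arrays (19% and 22.9% of all genes). In the right panel, 1 of the same 17 is higher and 6 are lower after miR-376a*G as labelled (18% and 15.4% of all genes).

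The partners and regulators of these factors gave mixed counts after miR-376a*G as labelled. E proteins, the dimer partners of TWIST, and the ID inhibitors gave 1 higher and 2 lower of 7 tested (18% and 15.4% of all genes; median 0.00). ID2, which sequesters E proteins, fell by 1.20 (limma adjusted p = 0.00584) and the E protein gene TCF4 by 1.06 (adjusted p = 0.00744), while ID4 rose by 0.77 (adjusted p = 0.0315). TCF3 differed by 0.18 (adjusted p = 0.686). Corepressors and chromatin partners gave 5 higher and 2 lower of 14 (18% and 15.4% of all genes; median 0.18). EZH2, the methyltransferase of Polycomb complex 2, rose by 1.51 (adjusted p = 0.000697) from 183 to 268 in control to 646 to 696. AJUBA, a LIM-domain corepressor of SNAI proteins, rose by 0.82 (adjusted p = 0.00519). RCOR1 (CoREST) fell by 1.24 (adjusted p = 0.000308) and LMCD1 by 1.06 (adjusted p = 0.00135). With arrays centred on medians these corepressor counts were 2 and 3 (8.48% and 20.6% of all genes).

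Regulators of SNAI, TWIST and ZEB protein gave 3 higher and 4 lower of 15 (18% and 15.4% of all genes; median -0.15). These were 0 and 5 with centred arrays (8.48% and 20.6% of all genes) and 5 and 1 with hybridisation or poly-A scaling (44.1% and 7.57%, or 38.3% and 9.18%). GSK3B, the kinase that marks SNAI1 for degradation, fell by 0.84 (limma adjusted p = 0.00617) and LATS2, a Hippo-pathway kinase, by 0.89 (adjusted p = 0.00204). The ubiquitin ligase subunit FBXW7 rose by 0.50 (adjusted p = 0.0183) and the deubiquitinase USP1 by 0.86 (adjusted p = 0.0197). For miR-376a*A against control in the fit to 7 arrays, the counts were 2 higher and 3 lower for E proteins and ID genes, 3 and 3 for corepressors and 3 and 4 for regulators of the proteins (19% and 22.9% of all genes). The last of these was 0 and 10 with hybridisation scaling (7.83% and 35.3% of all genes).

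Among 5 further cadherins that were tested, 1 (CDH7) was lower and 0 were higher after miR-376a*G as labelled (15.4% and 18% of all genes; median 0.09). CDH7 gave 34.2, 26.1 and 19.6 with miR-376a*A, 1.27, 1.23 and 1.59 with miR-376a*G and 16.4, 32.1 and 44.6 in control. The miR-376a*G values lay far below the array medians of 21.7 to 24.6, and CDH7 passed the filter through the other groups, so no fold change is given. CDH18 showed a split opposite to that of CDH2, with 74.0, 14.3 and 14.99 with miR-376a*A, 64.3, 62.6 and 58.1 with miR-376a*G and 9.51, 56.8 and 65.2 in control. The values of miR-376a*A replicates 2 and 3 and of control replicate 1 lay below their array medians, so no fold change is given for CDH18 either. CDH26 and CDH24 differed by 0.27 and 0.09 between miR-376a*G and control as labelled (adjusted p = 0.403 and 0.714).

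Catenins and other junction linkers, which tie cadherins to actin, gave 1 higher and 2 lower of 11 tested after miR-376a*G (18% and 15.4% of all genes; median 0.04). These were 3 and 1 with hybridisation scaling (44.1% and 7.57% of all genes). CTNNB1 (beta-catenin) read 818, 806 and 755 with miR-376a*G and 1070 to 1384 elsewhere, and fell by 0.55 (limma adjusted p = 0.00176). CTNNA1 (alpha-E-catenin) fell by 0.79 (adjusted p = 0.000974). PKP4, a p120-related armadillo protein, rose by 0.93 (adjusted p = 0.00817), and CTNNA2 lay below the array medians on all miR-376a*G arrays, so that no fold change is given. In the fit to 7 arrays 4 were higher and 3 lower with miR-376a*A than in control (19% and 22.9% of all genes). These were 1 and 3 with hybridisation scaling (7.83% and 35.3%). After miR-376a*G the 7 arrays gave these list counts against control, higher then lower (31.2% and 25% of all genes). Further mesenchymal factors gave 5 and 8 of 14, glioma-state regulators 2 and 5 of 9. Genes raised with the mesenchymal state gave 2 and 7 of 17, epithelial genes 1 and 1 of 8. E proteins and ID genes gave 1 and 3 of 7, corepressors 6 and 3 of 14. Protein regulators gave 3 and 7 of 15, cadherins 0 and 1 of 5, junction linkers 4 and 3 of 11.

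The E-box that SNAI and ZEB factors bind was searched, as CAGGTG or its reverse complement CACCTG, in the 250 bases before each annotated start of the listed genes, because these factors are known to act on each other's promoters. RefSeq promoters (GRCh38.p14) were at hand for 5 of the 9 genes (TWIST2, ZEB1, ZEB2, PRRX1 and CDH2), with 12 start sites. A match was found in 2 of the 12, both of ZEB1, and in 17.5% of 35116 promoters of all genes. The windows below are on the plus strand of chromosome 10, with the match in capitals.
ZEB1, chr10:31318348-31318377: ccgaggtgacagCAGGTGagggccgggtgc
ZEB1, chr10:31318966-31318991: ccccaccaCACCTGaggaaaactttt
ZEB1, chr10:31319119-31319148: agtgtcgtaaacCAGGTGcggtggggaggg
The first lies 57 bases before the first ZEB1 start site, and the other two lie 242 and 85 bases before the third. A match describes these letters only. No binding was measured here.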

How the data were processed

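Expression was measured in U87 cells on 9 Affymetrix arrays (3 per group, placed by their labels). Total RNA was extracted with Trizol, cleaned on a Qiagen column and given a biotin-ULS label, per the labels' protocols. The authors deposited 1 linear intensity per probe set, and the submitters' processing notes name GCOS 1.4.0.036. No source used here states the summarisation. Trimmed by 2% at both ends, the mean intensity of every array was 100.01 to 2 decimals, so arrays had been scaled. No pair of arrays was identical (0 pairs), and there were 0 columns from other samples. The number of arrays limits the precision.

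Of 54675 probe sets, 41097 had 1 symbol in the platform annotation, 1801 had several and 11777 were unlisted. The last 2 kinds were left out. A gene was represented by its probe set of highest mean log2 intensity. Genes above the array median on at least 3 arrays were fitted as log2(intensity + 1) with limma 3.58.1 in R 4.3.3 (eBayes with trend, 6 residual degrees of freedom, or 4 without the 2 arrays, two-sided, Benjamini-Hochberg over all tested genes). The same fit was run on single probe sets, and the steps were tested on simulated data. Figures were drawn with matplotlib 3.10.9.

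All 9 genes are named. Of each related list, the 4 tested genes with the smallest p in miR-376a*G minus control are named, with any list gene called in miR-376a*A minus control as labelled (there were 0 such genes), and the 3 most similar genes of each gene that passed the F test. Marker genes are named with their list. The genes and lists were chosen with earlier results of these data known. Lists are described by counts and medians without a test. Alternatives covered scaling, pseudocount, filter, probe-set choice, trend, samples in the fit, replicate block and arrays left out.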

Additional observations from a re-analysis of the deposited data

How the results depend on the processing

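As labelled, single-gene differences kept direction and side of the threshold in 466 cases, lost the call in 16, gained it in 13 and changed sign in 30. Without the 2 arrays 15 changed sign (these alternatives were chosen after seeing the data). Calls kept, lost or gained are not counted there, because some of those fits leave 1 array in a group. The number of genes called moved as follows. Leaving out the 2 arrays changed it from 0 to 6 for miR-376a*A against control (41.9% of all genes, from 0%). It went from 4 to 6 for miR-376a*G against control (56.1%, from 33.4%) and from 4 to 7 between the forms (59.6%, from 38.2%). Hybridisation scaling gave 2 for miR-376a*G against control (51.7% of all genes, from 33.4%) and 1 between the forms (70.3%, from 38.2%), and poly-A scaling gave 2 for miR-376a*G against control (47.5%). Without the 2 arrays, miR-376a*A against control went from 6 to 3 with arrays centred on medians (39.3% of all genes, from 41.9%). It also went to 3 with the mean over probe sets, where 4493 of 11701 genes were called. The comparison between the forms went from 7 to 2 with hybridisation scaling (79.4%, from 59.6%). With 1 array left out in turn, the counts ranged over 0 to 0, 3 to 4 and 4 to 6 (6 without miR-376a*A replicate 1) as labelled. Of all 12587 genes, 0, 2994 to 4952 and 3497 to 5602 were called in the same fits. Without the 2 arrays, leaving out a further miR-376a*A or control array leaves 1 array in that group. Such a group is assumed to vary like the others, so no counts are given for those fits.

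Replicate numbers did not pair the arrays: same-numbered deviations correlated at -0.881 to -0.556 (miR-376a*A with control), -0.167 to 0.00896 (miR-376a*G with control) and -0.076 to 0.0457 (the microRNA forms). With the replicate number as a block, 0, 2936 and 3453 of all 12587 genes were called in the 3 comparisons. Of the 8 genes, 0, 3 and 4 were called. ZEB1 after miR-376a*G was no longer among them (limma adjusted p = 0.0969).

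Differences that changed sign for miR-376a*A against control as labelled were TWIST2 (0.27 without the 2 arrays, 0.034 with poly-A scaling), SNAI2, ZEB1 and ZEB2 with hybridisation scaling (-0.12, -0.10 and -0.18), and ZEB2 and CDH11 with the mean over probe sets (-0.11 and -0.10). With 1 array left out, TWIST2 ranged from -0.29 to 0.094 and ZEB2 from -0.039 to 0.28. For miR-376a*G against control they were PRRX1 and CDH11 without the 2 arrays (0.23 and 0.057), with hybridisation scaling (0.28 and 0.11) and with poly-A scaling (0.19 and 0.012), and TWIST2 and PRRX1 with the mean over probe sets (0.21 and 0.19). With 1 array left out, PRRX1 ranged from -0.30 to 0.23 and CDH11 from -0.55 to 0.057, positive without control replicate 1. Between the forms they were CDH2 without the 2 arrays (0.64) and with centred arrays (0.14), TWIST1, TWIST2, PRRX1 and CDH11 with hybridisation scaling (-0.20, -0.31, -0.040 and -0.10), and TWIST2 and CDH11 with the mean over probe sets (-0.28 and -0.075). CDH2 ranged from -0.50 to 0.64 with 1 array left out, positive without miR-376a*A replicate 1.

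Without the 2 arrays the sign changed for TWIST2 with hybridisation scaling (-0.0025) and ZEB2 with the mean over probe sets (-0.22) in miR-376a*A against control. For miR-376a*G against control it changed for CDH11 with quantile normalization (-0.054), PRRX1 and CDH11 with centred arrays (-0.078 and -0.25), TWIST2 and ZEB1 with hybridisation scaling (0.15 and 0.032), and TWIST2 with poly-A scaling (0.012) and the mean over probe sets (0.29), and CDH11 ranged from -0.12 to 0.23 with 1 array left out. Between the forms it changed for TWIST1, TWIST2 and CDH2 with hybridisation scaling (-0.17, -0.15 and -0.049) and TWIST2 with the mean over probe sets (-0.23). The cause was not tested in any of these.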
